A study of Homo sapiens with 12 samples.

Results

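The ligands and receptors of transforming growth factor beta (TGF beta) and of the bone morphogenetic proteins (BMP) were followed in LNCaP, a human prostate cancer cell line that responds to androgen, with USP22 raised or lowered. The 10 genes were picked by name as 5 ligands (TGFB1, TGFB2, TGFB3, BMP4 and BMP7) and 5 receptors (TGFBR1, TGFBR2, TGFBR3, BMPR1A and BMPR2), and each matched 1 of the 63677 Ensembl gene IDs of the count table. RNA was sequenced from 4 groups of 3 libraries. They were cells with USP22 overexpression (LN-USP22hi), their pLPLUC vector control, cells with USP22 depletion by shRNA and their shRNA control. All cells grew in medium with hormone, and both shRNA groups, control included, received doxycycline at 1 ug/mL every 48 hours over 5 days. The labels name a single shRNA and do not say whether a line was a clone or whether replicates were separate cultures, so p-values measure the spread between these libraries, which may be technical.

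TGF beta and BMP ligands are secreted dimers that bring together type II and type I receptor kinases on the cell surface. The type II receptor phosphorylates the type I receptor, which phosphorylates SMAD proteins that enter the nucleus: SMAD2 and SMAD3 for TGF beta, and SMAD1, SMAD5 and SMAD9 for BMP. In prostate epithelium TGF beta is known as a growth inhibitor, and tumour cells often lose that response. USP22 is the ubiquitin protease of the SAGA coactivator complex, which acts on histones at transcribed genes.

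The libraries held 77607469 to 103690001 counted reads. USP22 stood at 1406 to 1498 CPM (read counts scaled to a common library size) after overexpression and 482 to 565 CPM in the vector control. It stood at 251 to 265 CPM after depletion and 473 to 479.7 CPM in the shRNA control. The luminal prostate marker KLK3 stood at 290.4 to 1464 CPM over the 12 libraries. The immune list of 7 genes summed to 1.17 to 2.03 CPM. The list of basal and other epithelial markers, 6 genes, summed to 6.47 to 17.1 CPM. In it VIM stood at 4.03 to 7 CPM, ITGB4 at 1.31 to 6.03 CPM and KRT14 at 0.428 to 3.69 CPM. KRT5 and TP63 of that list had at most 2 reads in any library. The fibroblast and smooth muscle list of 11 genes summed to 12.2 to 20.2 CPM, with COL1A1 at 6.06 to 16.4 CPM and COL3A1 at 0.689 to 3.8 CPM. The endothelial list of 6 genes summed to 8.67 to 15.4 CPM, most of it VWF. In that list EMCN stood at 0.597 to 2.44 CPM and PECAM1 had 0 reads in all 12 libraries. Vector control replicate 3 stood apart, with an SD of 0.437 around its group mates on the log2 scale, against 0.241 to 0.327 for the other libraries, so results that rest on it are also given without it. In bulk RNA, fewer cells with a transcript and less of it per cell cannot be told apart.

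The sequences shown are the 250 bases before the RefSeq start (GRCh38.p14, plus strand) of BMPR2 and BMPR1A, the receptors that fell on depletion. The BMPR2 window is chr2:202376077-202376326 and the BMPR1A window is chr10:86755513-86755762. Both strands were searched, and capitals mark GC boxes (GGGCGG, or CCGCCC on the other strand) and SMAD half-sites (CAGAC, or GTCTG on the other strand).
BMPR2: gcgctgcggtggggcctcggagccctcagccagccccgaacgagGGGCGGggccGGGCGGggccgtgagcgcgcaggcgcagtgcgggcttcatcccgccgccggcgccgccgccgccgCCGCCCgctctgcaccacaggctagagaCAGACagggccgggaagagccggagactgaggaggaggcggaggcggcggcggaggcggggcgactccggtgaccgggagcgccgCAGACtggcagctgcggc
BMPR1A: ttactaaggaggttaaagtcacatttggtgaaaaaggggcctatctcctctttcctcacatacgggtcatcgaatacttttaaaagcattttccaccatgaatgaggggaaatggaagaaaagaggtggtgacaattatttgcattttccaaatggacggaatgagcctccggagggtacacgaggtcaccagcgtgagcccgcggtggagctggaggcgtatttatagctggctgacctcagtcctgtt
The BMPR2 window holds 3 GC boxes and 2 SMAD half-sites, and 79.2% of its bases are G or C. No match of the one motif overlaps a match of the other there. The GC-rich SMAD site GGCGCC, left in lower case, occurs 1 time in the BMPR2 window. The BMPR1A window holds none of these motifs and is 47.2% G or C. Among 35116 RefSeq windows of this length, 42.6% hold a GC box, 38% a SMAD half-site and 16.4% the GC-rich site, and the median GC content is 58%. In GENCODE 29 exons of another gene, AC067750.1, cover all 250 bases of the BMPR1A window, and no annotated exon reaches into the BMPR2 window. These matches are a description of letters, not of binding.

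The receptors were read far more than the ligands. Scaled for length as CPM per kb of exon (GENCODE 29), BMPR2 was the highest of the 10 genes in all 4 groups, and TGFBR2 was the lowest receptor. BMPR2, the type II receptor of BMP ligands, averaged 12.5 ± 0.541 CPM per kb on overexpression, 12.2 ± 2.51 in the vector control, 18.4 ± 0.803 on depletion and 27.7 ± 1.02 in the shRNA control (SD, n = 3 each). That placed it above 81.6% of 19376 protein-coding genes on overexpression, 80.6% in the vector control, 88.6% on depletion and 93.5% in the shRNA control. TGFBR2, the type II receptor of TGF beta, averaged 0.344 CPM per kb on overexpression, 0.291 in the vector control, 0.436 on depletion and 0.522 in the shRNA control. Its lowest library, at 0.261 CPM per kb, lay above the highest library of any ligand, at 0.21 CPM per kb for TGFB3.

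The order of the type I receptors differed between groups. TGFBR1, which serves TGF beta, stood at 5.49 to 6.28 CPM per kb on overexpression and 4.66 to 6.19 in the vector control. BMPR1A, which serves BMP, stood at 3.02 to 3.3 CPM per kb on overexpression and 3.07 to 3.47 in the vector control, below TGFBR1 in every library of both groups. On depletion TGFBR1 was still above BMPR1A, at 5.2 to 5.42 against 3.7 to 4.31 CPM per kb. In the shRNA control BMPR1A, at 5.83 to 6.57 CPM per kb, lay above TGFBR1, at 4.5 to 5.02. TGFBR3 (betaglycan), the co-receptor that presents TGF beta, stood at 2.68 to 2.76 CPM per kb on overexpression and 2.83 to 3.18 in the vector control, where it overlapped BMPR1A. It stood at 2.41 to 2.45 CPM per kb on depletion and 2.63 to 2.78 in the shRNA control.

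**Figure D1:**
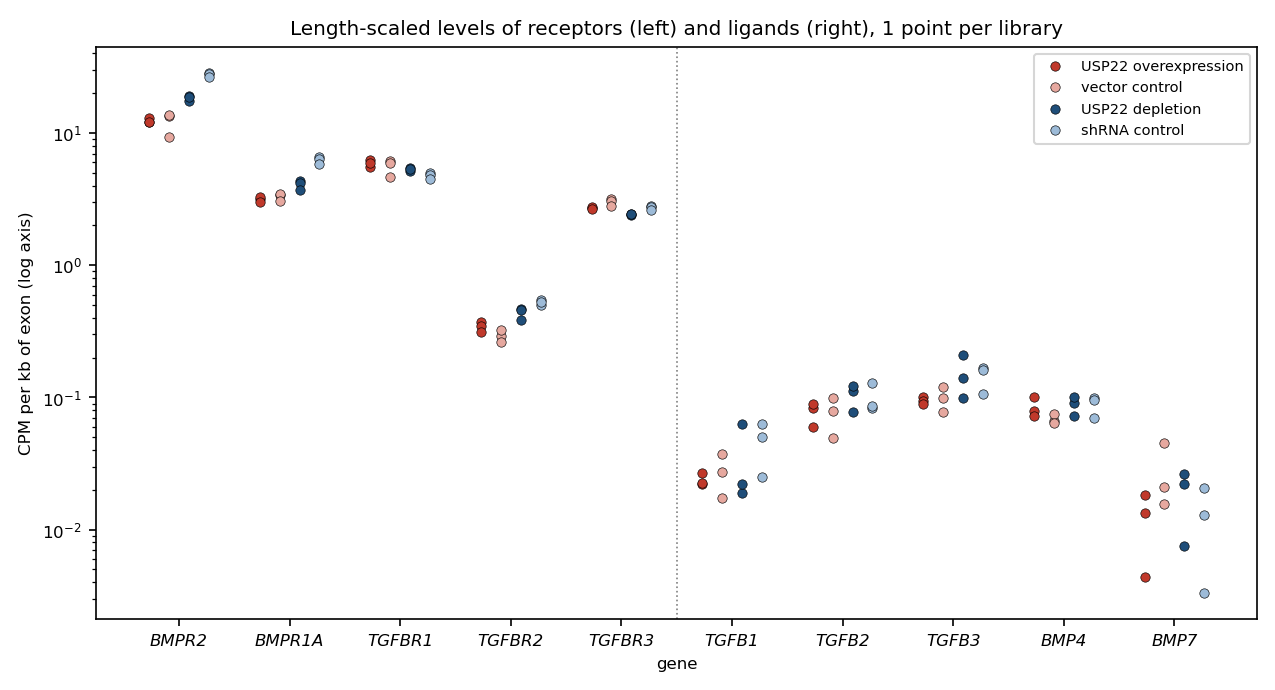
Length-scaled level of each gene in CPM per kb of exon (log axis), 1 point per library, in order of overexpression, vector control, depletion and shRNA control. The receptors other than TGFBR2 lie at or above 2.41 CPM per kb and all ligand libraries at or below 0.21.

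On overexpression none of the 10 genes was called (edgeR adjusted p under 0.05), where 4.11% of the 26076 tested genes were called, 1.51% higher and 2.6% lower. Only TGFBR3, 1 of 10, had an unadjusted p under 0.05, and DESeq2 and limma voom also called 0 of the 10. The median log2 fold change of the 10 genes was -0.02, against -0.01 over all tested genes. All 10 passed the filter on low counts, which used all 12 libraries. In the fit of the overexpression and vector control libraries alone 8 passed, without TGFB1 and BMP7. The filter of 1 CPM in 3 libraries left 5. On depletion 2 of 10 fell, BMPR2 and BMPR1A, where 19.8% of tested genes were called, 10.4% lower and 9.4% higher, and the median was -0.08 against 0.00. The count of 2 in 10 is near that share, so it is not a result about the set. The depletion comparison has control libraries of its own, which differed widely from the vector control: 43% of tested genes were called between the shRNA control and the vector control. Which part of that came from the vector, the shRNA or doxycycline cannot be told apart.

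**Figure D2:**
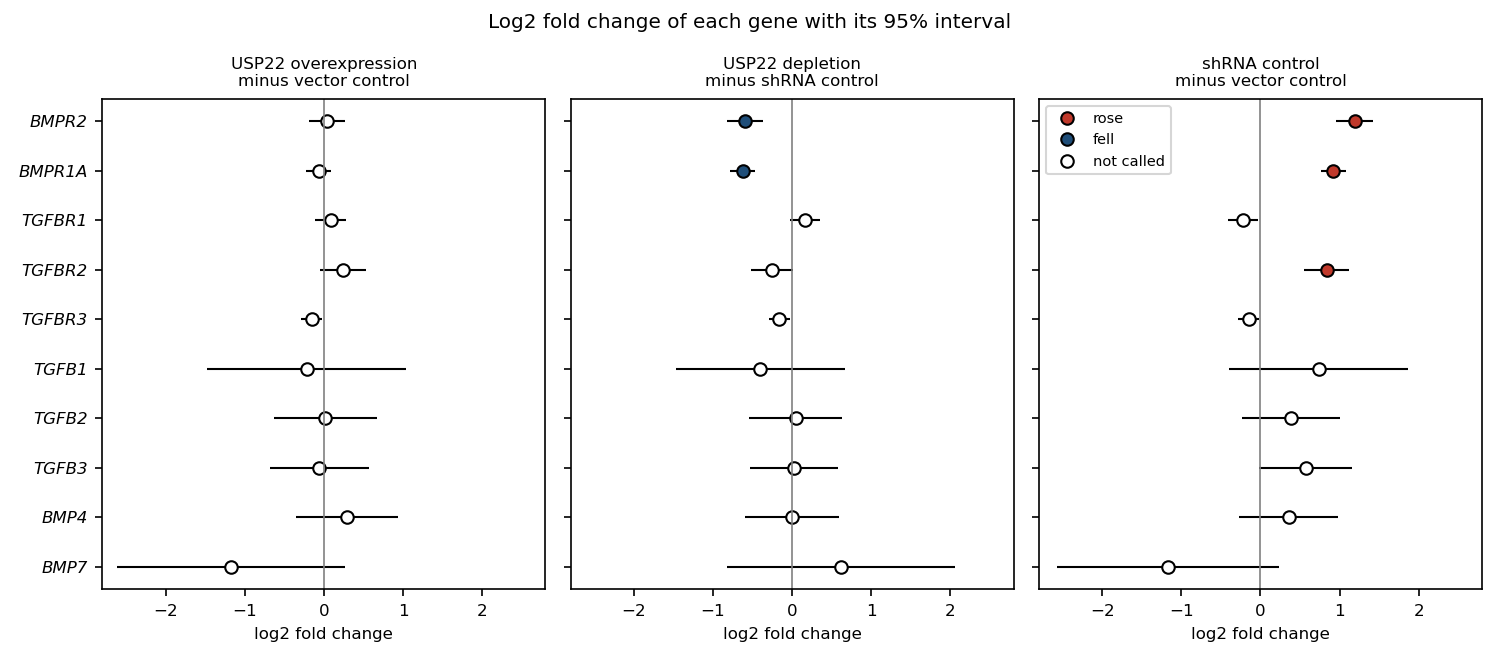
Log2 fold change of each gene with its 95% interval from edgeR in 3 comparisons, with filled points for called genes. BMPR2 and BMPR1A fell on depletion, and both rose with TGFBR2 in the shRNA control.

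BMPR2 had 144, 156 and 145 CPM on overexpression, against 160.3, 163 and 110.1 CPM in the vector control. The groups overlapped, and the low vector value was that of replicate 3. The log2 fold change was 0.04 (SE 0.11, 95% interval -0.19 to 0.26, edgeR adjusted p = 0.902). Without vector control replicate 3 it was -0.13 (edgeR adjusted p = 0.137, the lowest of 0.137 to 0.997 over the alternatives), and without overexpression replicate 2 it was -0.0024, so no direction can be given. On depletion BMPR2 had 226, 208 and 223 CPM, against 338, 335 and 316 CPM in the shRNA control. All depletion libraries lay below all control libraries. The groups did not overlap, in one direction or the other, for 41.8% of tested genes. The fall was to 0.663 of control, or -0.59 on the log2 scale (SE 0.11, edgeR adjusted p = 0.000849). This call held in all 21 alternatives, with log2 fold changes of -0.61 to -0.54 and adjusted p of at most 0.0128.

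The BMPR2 level of the shRNA control was itself high. It lay 1.19 log2 units above the vector control (SE 0.11, 2.28-fold, edgeR adjusted p = 2.19e-07), with no overlap, as for 49.8% of tested genes in either direction. Without vector control replicate 3 that difference was 1.02 (edgeR adjusted p = 1.8e-13, where the alternatives ranged from 3.7e-66, in the fit with no low-count filter, to 0.000203). The depletion libraries, at 208 to 226 CPM, therefore lay between the shRNA control and the vector control, and above every vector control library. These comparisons share the shRNA control libraries. The response to overexpression minus the response to depletion was 0.63 (SE 0.15, edgeR adjusted p = 0.0131), where 10.9% of tested genes were called, 4.91% higher and 5.98% lower. Without depletion replicate 2 this call ended (adjusted p = 0.0534, the highest of 1.64e-08 to 0.0534 over the alternatives). The 1.64e-08 is again from the fit with no low-count filter, whose p-values hardly use the spread between a gene's own libraries. Without vector control replicate 3 the difference of the responses was 0.46, the lowest of the alternatives (edgeR adjusted p = 2.02e-05). Summed marker lists differed between the groups too. The list of basal and other epithelial markers, 6 genes, summed to 11.9 to 12.6 CPM on depletion and 15.5 to 17.1 CPM in the shRNA control, and to 7.61 to 8.66 CPM on overexpression and 6.47 to 7.18 CPM in the vector control. VIM, ITGB4 and KRT14 made up most of it. The luminal list of 10 genes summed to 5091 to 5622 CPM on depletion and 7004 to 7222 CPM in the shRNA control, and to 5217 to 5380 CPM on overexpression and 5521 to 5882 CPM in the vector control. The endothelial list ran the other way, at 12.8 to 15.4 CPM on depletion and 8.67 to 9.66 CPM in the shRNA control, with 11.5 to 12.7 CPM on overexpression and 11 to 14.6 CPM in the vector control. The part of these lists in the BMPR2 and BMPR1A results was not tested.

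BMPR1A, the type I kinase that pairs with BMPR2, had 36.4, 37.7 and 34.5 CPM on overexpression, against 38.7, 39.6 and 35 CPM in the vector control. The groups overlapped, and the log2 fold change was -0.06 (SE 0.07, 95% interval -0.22 to 0.10, edgeR adjusted p = 0.708). On depletion it had 49.2, 47.8 and 42.2 CPM, against 75, 73 and 66.5 CPM in the shRNA control. Every depletion library was below every control library. The fall was to 0.649 of control (log2 fold change -0.62, SE 0.07, edgeR adjusted p = 1.84e-05), and it was called in all 21 alternatives, from -0.66 to -0.54. The shRNA control was 1.89-fold above the vector control (log2 difference 0.92, SE 0.07, edgeR adjusted p = 6.28e-08), also called in all 21 alternatives. Without vector control replicate 3 that log2 difference was 0.87 (edgeR adjusted p = 1.08e-10). As with BMPR2, the depletion values lay between the control lines. The response to overexpression minus that to depletion was 0.56 (SE 0.11, edgeR adjusted p = 0.00258). It was 0.51 without vector control replicate 3 (edgeR adjusted p = 0.000117).

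TGFBR2 was low but counted in every library, with 87 to 260 reads. It had 1.75, 1.63 and 1.47 CPM on overexpression, against 1.37, 1.51 and 1.23 CPM in the vector control. The overexpression values were higher apart from an overlap at 1.47 and 1.51 CPM, and the difference of 0.24 on the log2 scale was not called (SE 0.14, edgeR adjusted p = 0.375). On depletion it had 2.19, 2.14 and 1.83 CPM, against 2.33, 2.56 and 2.46 CPM in the shRNA control. The groups did not overlap, and the difference of -0.25 on the log2 scale was not called (SE 0.13, 95% interval -0.52 to 0.01, edgeR adjusted p = 0.186). The shRNA control was 1.79-fold above the vector control (log2 difference 0.84, SE 0.13, edgeR adjusted p = 7.86e-05), a call that held in all 21 alternatives. Without vector control replicate 3 that log2 difference was 0.76 (edgeR adjusted p = 0.000137). Between the control lines, with all libraries kept, 3 of the 10 genes rose, BMPR2, BMPR1A and TGFBR2, where 21.7% of tested genes rose and 21.3% fell. The difference between the responses of TGFBR2 to overexpression and depletion was 0.49 (SE 0.19, unadjusted p = 0.0179, edgeR adjusted p = 0.11).

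TGFBR1 did not follow the BMP receptors. It had 37.6, 43 and 40.9 CPM on overexpression, against 42.4, 40.3 and 31.9 CPM in the vector control. These overlapped, with a log2 difference of 0.08 (SE 0.09, 95% interval -0.11 to 0.28, edgeR adjusted p = 0.667) that became -0.03 without vector control replicate 3. On depletion it had 37.1, 35.6 and 36.8 CPM, against 34.4, 32.9 and 30.8 CPM in the shRNA control. The depletion values were all higher, by 0.16 on the log2 scale, which was not called (SE 0.09, edgeR adjusted p = 0.256). It was called in a fit of just the 6 libraries compared (adjusted p = 0.0199) and without vector control replicate 3 (0.0225), in a range of 0.0199 to 0.488 over the alternatives. The shRNA control lay 0.22 log2 units below the vector control (edgeR adjusted p = 0.0559), and 0.34 below without vector control replicate 3 (adjusted p = 3.38e-05, where the alternatives ranged up to 0.234). With all libraries kept it was called by DESeq2 (adjusted p = 0.0434) and by edgeR with no filter on low counts (adjusted p = 0.0345). The p-value of that last fit hardly uses the spread between the gene's own libraries.

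TGFBR3 was a little lower in each of the 3 comparisons, and none was called. It had 23.7, 24 and 23.3 CPM on overexpression, against 27.6, 26.6 and 24.6 CPM in the vector control. On depletion it had 21, 21.4 and 21.2 CPM, against 24.2, 23.9 and 22.9 CPM in the shRNA control. The groups did not overlap in either case, and the log2 fold changes were -0.15 (SE 0.06, edgeR adjusted p = 0.211) and -0.16 (SE 0.06, edgeR adjusted p = 0.0857). On overexpression TGFBR3 was the 1 gene of 10 without overlap, where 22.4% of tested genes had none, and on depletion it was 1 of 5 among the 10, where 41.8% of tested genes had none. Without vector control replicate 3, which enters the depletion comparison through the shared estimate of the spread, both were called, with log2 fold changes of -0.20 (adjusted p = 0.0241, in a range of 0.0241 to 0.533) and -0.16 (adjusted p = 0.0113, in a range of 0.0113 to 0.395). On depletion it was also called in a fit of just the 6 libraries compared (adjusted p = 0.0233). The shRNA control was 0.15 log2 units below the vector control (edgeR adjusted p = 0.0649), and 0.20 below without that library (adjusted p = 0.00337, in a range of 0.00337 to 0.294), and with all libraries kept it was called by DESeq2 (adjusted p = 0.0353).

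**Figure D3:**
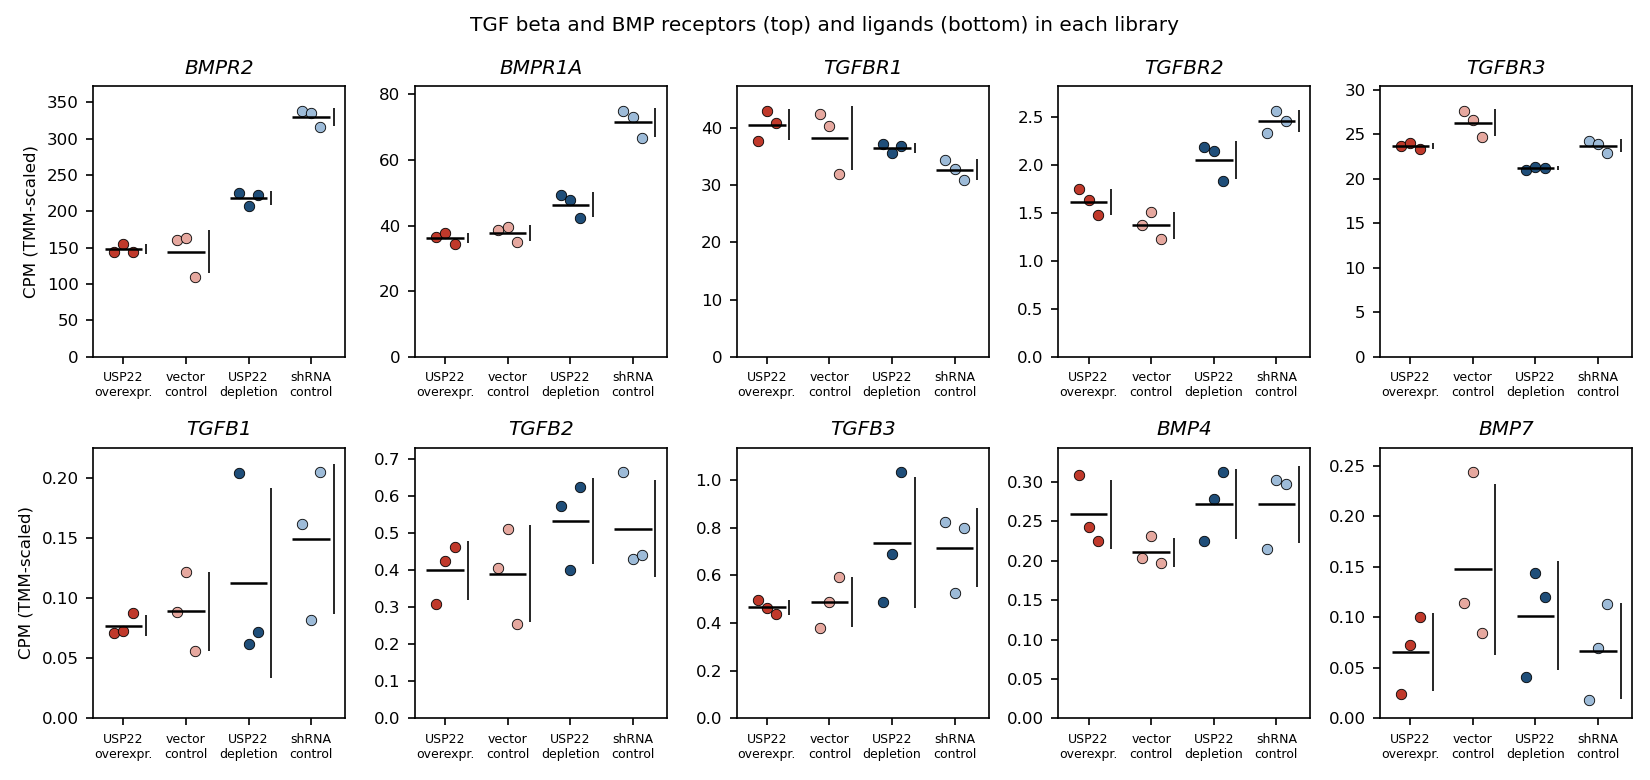
CPM of each gene by library (points), with the mean (line) and SD (bar beside it) of each group and receptors in the upper row. BMPR2 and BMPR1A are highest in the shRNA control and lie between it and the vector control after depletion, and all ligand values lie at or below 1.03 CPM.

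The ligand transcripts were near the limit of detection at this depth, so the comparison could show large differences only. TGFB1, the most widely expressed TGF beta isoform in other tissues, had 6, 6 and 7 reads on overexpression and 7, 10 and 4 in the vector control. It had 20, 6 and 6 reads on depletion and 18, 7 and 20 in the shRNA control. The groups overlapped, with log2 fold changes of -0.22 on overexpression (95% interval -1.47 to 1.04) and -0.40 on depletion (-1.47 to 0.67), and edgeR adjusted p of 0.889 and 0.654. TGFB1 shares 215 bases of exon with HNRNPUL1 on the other strand, a gene with 6169 to 7398 reads per library. Whether the counting used strand is not stated in the sources used here, and a part of these few reads may belong to HNRNPUL1.

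BMP7, a ligand of BMPR2 complexes, had 2, 6 and 8 reads on overexpression and 9, 20 and 6 in the vector control. It had 4, 14 and 10 reads on depletion and 2, 6 and 11 in the shRNA control. The groups overlapped in both comparisons. The fitted log2 fold change on overexpression was large at -1.18, but its interval ran from -2.62 to 0.26 (edgeR adjusted p = 0.375), and on depletion it was 0.62 (interval -0.82 to 2.06, edgeR adjusted p = 0.601).

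BMP4, which restrains budding of prostate ducts in mice, had 26, 20 and 18 reads on overexpression and 16, 19 and 14 in the vector control. It had 22, 27 and 26 reads on depletion and 24, 26 and 29 in the shRNA control. Its log2 fold changes were 0.30 (interval -0.35 to 0.94) on overexpression and 0.00 (interval -0.59 to 0.60) on depletion, with edgeR adjusted p of 0.648 and 0.998. TGFB2, the isoform that depends most on betaglycan for receptor binding, had 26, 35 and 37 reads on overexpression and 32, 42 and 18 in the vector control. It had 56, 39 and 52 reads on depletion and 74, 37 and 43 in the shRNA control. Its log2 fold changes were 0.02 (interval -0.63 to 0.67) and 0.04 (interval -0.55 to 0.64).

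TGFB3, the third isoform, was the ligand with most reads. It had 42, 38 and 35 reads on overexpression and 30, 40 and 42 in the vector control, and 48, 67 and 86 on depletion and 92, 45 and 78 in the shRNA control. The groups overlapped in both cases, with log2 fold changes of -0.06 (interval -0.68 to 0.57) and 0.02 (interval -0.53 to 0.58). Between the control lines no ligand was called, and the smallest p was that of TGFB3 (log2 difference 0.57, SE 0.28, unadjusted p = 0.0569, edgeR adjusted p = 0.112). By mean CPM per kb TGFB3 led the ligands in all 4 groups, followed by TGFB2 and BMP4 (BMP4 before TGFB2 on overexpression), and in each group the neighbours in this order overlapped. TGFB1 and BMP7 had the lowest means, and BMP7 lay below TGFB1 without overlap on overexpression and in the shRNA control. All 5 ligands together took 84 to 210 reads per library.

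The genes most like BMPR2 over the 12 libraries were QKI, an RNA-binding protein (Pearson's r = 0.995 on log2 CPM), FAM13B (0.99) and HERC4, a ubiquitin ligase of the HECT type (0.988). Those most like BMPR1A were ZNG1A, a zinc chaperone (0.994), CHSY1, a chondroitin synthase (0.992), and BBS4, a subunit of the BBSome of cilia (0.991). They were the top 3 of 11173 genes each. The values describe likeness only, since the points share libraries and the gap between control lines. QKI averaged 62.2 CPM on overexpression, 63.7 in the vector control, 89.8 on depletion and 131 in the shRNA control. CHSY1 averaged 73 CPM on overexpression, 77.3 in the vector control, 86.9 on depletion and 114 in the shRNA control.

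Of all tested genes, 1.51% rose and 2.6% fell on overexpression, and 9.4% rose and 10.4% fell on depletion. Among 28 other ligands of the superfamily 14 were tested. Their median log2 fold changes were 0.20 on overexpression and 0.28 on depletion, against -0.01 and 0.00 over all tested genes. On overexpression 2 rose and 1 fell: BMP8B (1.41-fold, edgeR adjusted p = 0.00554), INHBB, the beta B subunit of activin and inhibin (1.42-fold, 0.00823), and AMH, anti-Mullerian hormone, which fell to 0.579 of control (0.00278). The shRNA control differed from the same vector control in the same directions. With 1 library left out those log2 differences were 0.99 to 1.04 for BMP8B, 0.07 to 0.28 for INHBB and -1.02 to -0.81 for AMH. The part of that gap in the overexpression results was not tested. On depletion 3 rose and 2 fell, with GDF15, a stress-induced ligand (1.62-fold, edgeR adjusted p = 7.37e-05), and INHBB (1.5-fold, 0.000518) among the rises and GDF11 among the falls (0.756 of control, 0.00027). AMH rose on depletion too (1.35-fold, edgeR adjusted p = 0.0323), opposite to its fall on overexpression. GDF15 averaged 80.5 ± 3.52 CPM on depletion and 49.8 ± 2.47 CPM in the shRNA control (SD, n = 3 each), above any of the 5 ligands followed here in reads, and its log2 difference between the shRNA control and the vector control was -1.33. That of GDF11 was 0.93. In a fit of just the 6 libraries of the comparison, BMP8B and INHBB lost their calls on overexpression (adjusted p = 0.0621 and 0.078), and so did INHBB without overexpression replicate 3 (0.0536). Without overexpression replicate 3 the rises on overexpression were 1, and the falls on depletion were 1 without depletion replicate 1 or 2 or shRNA control replicate 2 or 3.

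Of 15 other receptors and co-receptors 12 were tested, and 1 fell on overexpression. This was BMPR1B, the type I receptor closest to BMPR1A, which averaged 1.39 ± 0.1 CPM on overexpression and 5.58 ± 0.862 CPM in the vector control (SD, n = 3 each; 0.248 of control, log2 fold change -2.01, SE 0.14, edgeR adjusted p = 1.61e-07). It averaged 0.662 CPM on depletion and 1.1 CPM in the shRNA control (0.603 of control, edgeR adjusted p = 0.00365), and between the shRNA control and the vector control its log2 difference was -2.34. On depletion 1 rose and 4 fell: RGMB, a BMP co-receptor, rose 1.35-fold, and NEO1 (neogenin), the receptor of the RGM proteins, and ACVR2B, an activin type II receptor, fell to 0.785 and 0.804 of control, with edgeR adjusted p of 6.69e-05, 0.00017 and 0.00221. Between the shRNA control and the vector control these genes differed the other way. With 1 library left out the log2 differences were -0.47 to -0.39 for RGMB, 0.91 to 0.93 for NEO1 and 0.17 to 0.23 for ACVR2B. The part of that gap in the depletion results was not tested. The count of rises on depletion was 2 without shRNA control replicate 2. The medians of this list were 0.00 on overexpression and 0.08 on depletion, against -0.01 and 0.00 over all tested genes. The shares over all tested genes were 2.6% lower and 1.51% higher on overexpression, and 10.4% lower and 9.4% higher on depletion.

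Genes that store, activate or block ligands included 17 tested of 29 listed, of which 7 fell and 0 rose on depletion (median log2 fold change -0.25, against 0.00 over all tested genes, of which 10.4% fell and 9.4% rose). They included ITGB6, an integrin subunit that activates TGF beta (0.255 of control, edgeR adjusted p = 5.84e-07), FSTL3, which binds activin (0.456, 1.35e-06), and CHRD, chordin, which binds BMP (0.637, 0.00137). The same 3 genes were above the vector control in the shRNA control, by 1.59, 1.54 and 4.84 on the log2 scale, and CHRD was near 0 in the vector control. On overexpression 2 fell and 1 rose: THBS1, which can activate latent TGF beta (log2 fold change -1.81), LTBP1 (-1.04) and LTBP2 (0.41), which encode latent TGF beta binding proteins, with edgeR adjusted p of 1.7e-10, 1.62e-05 and 0.0257. The LTBP2 call was lost in the fit of the 6 libraries alone (adjusted p = 0.161) and without overexpression replicate 1 or 3 or vector control replicate 1 or 2 (0.0822, 0.132, 0.0755 and 0.0666). The shRNA control differed from the same vector control in the same directions for THBS1, LTBP1 and LTBP2. With 1 library left out those log2 differences were -2.02 to -1.95, -0.72 to -0.66 and 1.27 to 1.44. The part of that gap in the overexpression results was not tested. Without vector control replicate 3 the falls on depletion were 11 and the rises on overexpression 3. Over all tested genes, 2.6% fell and 1.51% rose on overexpression.

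All 29 SMADs and SMAD regulators were tested, and on depletion 10 fell and 1 rose (median log2 fold change -0.05, against 0.00 over all tested genes, with the same 10.4% and 9.4%). PMEPA1 and SMAD7, which limit TGF beta signalling, fell to 0.513 and 0.447 of control, and NEDD4L, a ubiquitin ligase of SMAD2 and SMAD3, to 0.65 (edgeR adjusted p = 2.22e-08, 9.38e-08 and 5.37e-07). NEDD4L differed little between the control lines, by 0.14 on the log2 scale (edgeR adjusted p = 0.0392, and up to 0.129 over the alternatives), while PMEPA1 and SMAD7 were 1.13 and 0.86 higher in the shRNA control than in the vector control. On overexpression 3 fell and 1 rose, among them the inhibitory SMAD6 (log2 fold change -0.46) and SMAD7 (-0.41), and BAMBI, a pseudoreceptor, rose by 0.28 (edgeR adjusted p = 0.00682, 0.0111 and 0.0205). None of the 3 was called in the fit of the 6 libraries alone (adjusted p = 0.0645, 0.114 and 0.078). Without overexpression replicate 2 they ended too (0.0532, 0.0548 and 0.0562), and without overexpression replicate 1 those of SMAD7 and BAMBI did (0.0814 and 0.065). BAMBI also lost its call without overexpression replicate 3 or vector control replicate 2 (0.116 and 0.0572). The falls on overexpression were 1 and 0 without overexpression replicate 1 and 2 and 5 without vector control replicate 3. The rises there were 0 without any 1 overexpression library or vector control replicate 2, and 2 without vector control replicate 3. The rises on depletion were 5 without that last library. Over all tested genes, 2.6% fell and 1.51% rose on overexpression.

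Of 25 genes known as BMP or TGF beta targets, 7 of which also stand in the lists above, 24 were tested. On depletion 13 fell and 1 rose, where 10.4% of all tested genes fell and 9.4% rose. The median log2 fold change there was -0.75 against 0.00 over all tested genes. In the shRNA control 18 were above and 3 below the vector control (median 0.91 against 0.02). In that comparison 21.7% of all tested genes were higher and 21.3% lower. On overexpression 6 fell and 2 rose (median -0.16), where 2.6% of all tested genes fell and 1.51% rose. ID1, a BMP target, averaged 29.8 CPM on depletion and 103 CPM in the shRNA control, and 17.5 CPM on overexpression and 33.9 CPM in the vector control. The calls of ID2 and ID3 on overexpression (log2 fold changes -0.54 and -0.57) were lost when just those 6 libraries were fitted (edgeR adjusted p = 0.0519 and 0.063). In that fit 1 gene of the list fell and 0 rose. The falls on overexpression were 3 without overexpression replicate 2, and the rises were 0 or 1 without overexpression replicate 1, 2 or 3 or vector control replicate 1 or 2. The list was assembled with earlier results of these libraries known, so its direction is not independent evidence.

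**Figure D4:**
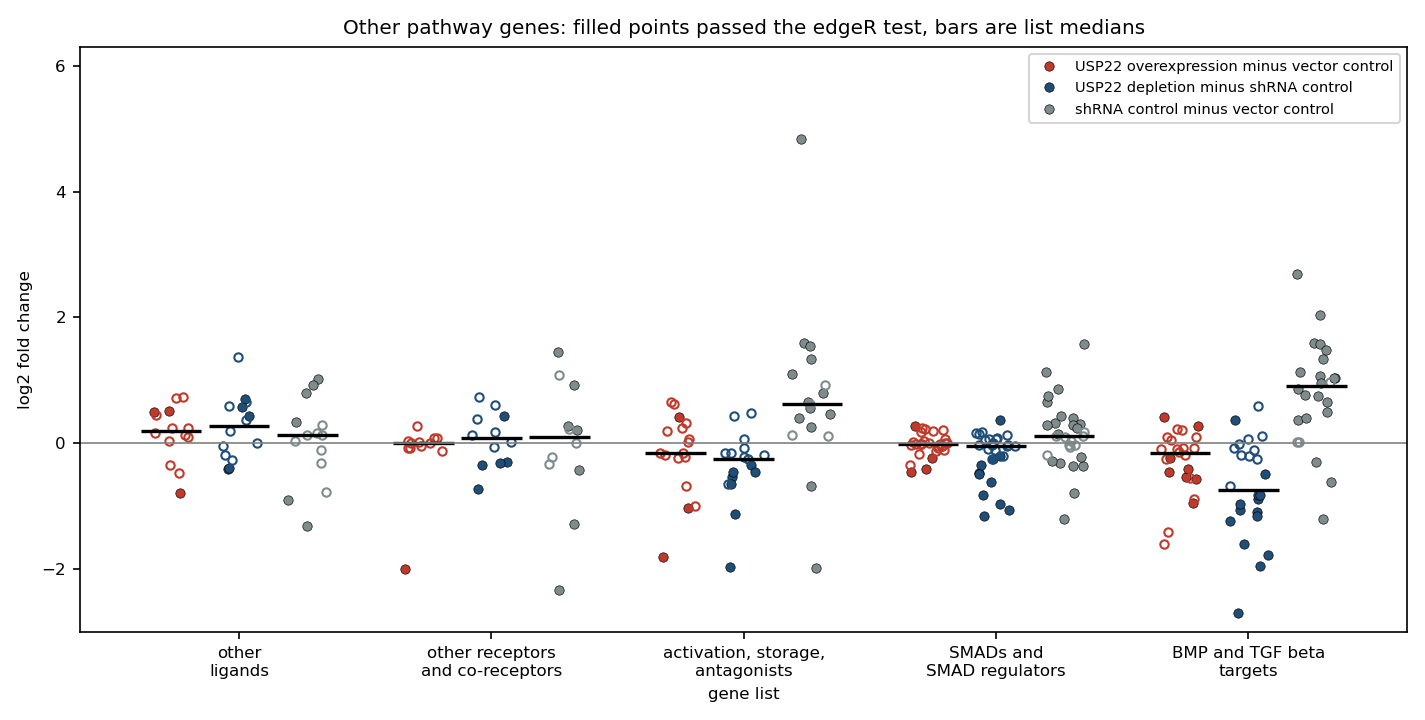
Log2 fold change of the tested genes of 5 pathway lists in 3 comparisons, with filled points for genes called by edgeR, open points for the others and a bar at each list's median. The target list has its median at -0.75 on depletion and at 0.91 in the shRNA control against the vector control.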

How the data were processed

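Per the labels' protocols, the 12 LNCaP libraries came from a kit for total RNA that keeps strand. The authors deposited 1 table of raw read counts per Ensembl gene ID, and the submitters' processing notes list build hg19, featureCounts 1.5.0-p3, STAR 2.5.2a and DESeq2 1.14.1. Annotation release, strand setting and handling of shared reads: not given in the sources used here.

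Columns were matched to samples by name, and symbols to IDs for 81.9% of IDs. The main test was edgeR 4.0.16 under R 4.3.3: filterByExpr by group left 26076 genes, library sizes were scaled by TMM, all 4 groups were fitted by glmQLFit, and contrasts were tested by glmQLFTest with Benjamini-Hochberg adjustment over all tested genes and a threshold of 0.05. Each standard error was derived from the log2 fold change and the F value. An exact permutation test of 3 against 3 libraries cannot go below p = 0.1. The fit was also run on simulated counts, with the same mean in all groups apart from genes changed by known folds. Those counts held no library that stood apart and no gap between control lines, so they do not test these features. The depth sets the counting error.

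The genes, lists and tests were chosen with earlier results of these data known. Other pathway genes were named by rule: called, with a mean of at least 1 CPM, up to 3 with the smallest p per list on overexpression and on depletion. For the called members, the 3 genes with the highest Pearson's r on log2 CPM (pseudocount 0.1) among genes with a mean of at least 5 CPM were named. Exon lengths and overlaps came from GENCODE 29, by ID, and promoter windows from RefSeq (9 of 10 genes matched). No replicate pair agreed within sampling noise: the smallest chi-square of a pair was 7.18 per degree of freedom.

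Alternatives were RLE scaling, no low-count filter, a filter of 1 CPM in 3 libraries, protein-coding genes alone, the 20 most abundant genes removed, DESeq2 1.42.0, limma voom 3.58.1, a fit of the compared groups, the replicate number as a block, and each library left out in turn.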

Additional observations from a re-analysis of the deposited data

Results flagged for a closer look

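BMPR1A and BMPR2 were called in the contrast of the responses to raised and to lowered USP22, as were 10.9% of tested genes. The response to overexpression minus the response to depletion was 0.56 on the log2 scale for BMPR1A (SE 0.11, edgeR adjusted p = 0.00258) and 0.63 for BMPR2 (SE 0.15, edgeR adjusted p = 0.0131). Both genes fell on depletion in 3 of 3 libraries, all below the shRNA control, where 41.8% of tested genes had no overlap. On overexpression neither was called, and both overlapped the vector control. The shRNA control itself lay 1.89-fold (BMPR1A) and 2.28-fold (BMPR2) above the vector control. Depletion values lay between these control lines, and the part of that gap in the contrast was not tested. The BMPR2 difference was 0.59 without depletion replicate 2 (adjusted p = 0.0534). Its range over the 20 alternatives was 0.46 to 0.72, with the lowest value without vector control replicate 3.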

How the results depend on the processing

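The number of called genes among the 10 was the same in most settings, though not all 10 were tested in each. On overexpression it was 0 to 1 over the fits that leave out 1 library, the 1 being TGFBR3 without vector control replicate 3. In the main fit 4.11% of all tested genes were called there. On depletion the number among the 10 was 2, where 19.8% of all tested genes were called. It was 4 with only the libraries compared and 2 to 4 when a library was left out. Over all genes the depletion calls rose too, from 5172 to 8115 with only the libraries compared and to 8359 without vector control replicate 3. For the shRNA control against the vector control the number among the 10 was 3, where 43% of all tested genes were called. It was 4 with no filter on low counts, 5 by DESeq2 and 3 to 5 when a library was left out. For the difference of the responses it was 2, where 10.9% were called, and 1 to 2 when a library was left out. Among genes that were not called, signs turned when a library was left out: on overexpression TGFB1 ranged from -0.45 to 0.073, TGFB2 from -0.21 to 0.26, TGFB3 from -0.21 to 0.10, TGFBR1 from -0.032 to 0.16 and BMPR2 from -0.13 to 0.13, and on depletion TGFB2 from -0.059 to 0.31, TGFB3 from -0.26 to 0.27 and BMP4 from -0.13 to 0.14. With limma voom TGFB3 on depletion was -0.042. The causes were not tested.

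The correlations of same-numbered deviations were -0.02 to 0.12 on overexpression and -0.02 to 0.09 on depletion. Differently numbered libraries were not compared, so these values cannot show whether the replicate numbers pair the libraries. With the replicate block the calls among the 10 genes were 0, 2, 3 and 2, as without it. Over all genes the calls on overexpression were 1072, and 2062 with no filter, 1683 by DESeq2, 327 with only the libraries compared and 501 to 1842 when a library was left out. On depletion they were 5172, and 8115 with only the libraries compared and 3523 to 8359 when a library was left out. The ligands had 2 to 92 reads per library, so only large differences could be called for them. The parts of depth, transcript level and spread between libraries in that limit were not tested.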
